A study of Mus musculus with 111 samples.

Results

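Gm22220 and Gm23472 are 2 of the 131 rows annotated as small nuclear RNA (snRNA) in a mouse small-RNA count table of 1268 rows. Both were picked by name for their levels in the cauda epididymis and in the sperm taken from it, so their order across tissues is described below without a test, and the tests concern diet. The assay was OTTR-seq, a small-RNA method whose reverse transcriptase joins the adapters during copying. There were 18 libraries of the cauda epididymis and 19 of cauda sperm, next to 19 of the caput epididymis, 19 of testis, 19 of heart and 17 of liver. Mice had been raised for 6 months on 1 of 4 diets, and each tissue and diet held 4 or 5 libraries. The control diet had 18% protein and the low-protein diet 10%, with sucrose in its place. The high-fat diet drew 60% of its calories from fat and its own control diet 7.2%. The labels name no strain or age, and do not say whether each library is a different animal or whether cauda tissue was freed of sperm. The p-values therefore measure the spread between libraries, which may be in part technical.

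Small nuclear RNAs form the core of the spliceosome. U1 recognises the start of an intron by base pairing between its 5′ end and the splice site, and U2 pairs with the branch site near the intron's other end. Both carry a short uridine-rich Sm site, around which a ring of Sm proteins is assembled, and both come from many gene copies, among them truncated and altered ones. Sperm finish their maturation while they pass from caput to cauda, where they are stored. Their nucleus is condensed and transcriptionally silent, so that the RNA they carry was made earlier or taken up on the way.

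The sequences come first, because they set what the reads of either row can stand for. Gm22220 (ENSMUSG00000064605.3) lies on the plus strand of chr12:54239238-54239386 in GRCm38, the assembly of mm10, within an intron of the long non-coding gene 1700104L18Rik on the same strand. It is 149 bases long and resembles U1. The RefSeq gene table of the same assembly lists it as a pseudogene. Rnu1a1, on the plus strand of chr11:87422867-87423030, is the U1 row with the most reads. The capitals mark the 72 bases that the rows share without a difference, the longest such stretch.
Gm22220: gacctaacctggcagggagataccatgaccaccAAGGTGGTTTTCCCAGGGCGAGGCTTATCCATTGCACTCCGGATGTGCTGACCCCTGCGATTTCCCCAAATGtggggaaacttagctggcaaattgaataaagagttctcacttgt
Rnu1a1: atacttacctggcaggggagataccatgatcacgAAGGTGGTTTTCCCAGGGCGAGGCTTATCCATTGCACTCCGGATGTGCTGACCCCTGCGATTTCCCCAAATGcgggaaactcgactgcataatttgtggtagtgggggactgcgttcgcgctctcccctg

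The best local alignment ran from base 4 to base 115 of both RNAs and held 107 identical positions, 4 mismatches and 2 gap positions. Counted from the 5′ end of Rnu1a1, with the base of Rnu1a1 first, the mismatches were T6A, T30C, G34C and C107G. Before the local alignment, Gm22220 also differed by A3C and lacked the T at position 2. A3C and T6A fall in the letters ACTTACCTG, which in Rnu1a1 start at position 3 and hold the bases that pair with the splice site. On either strand, 19.1% of the 131 snRNA rows hold these letters, and Gm22220 does not. The last 34 bases of Gm22220 could not be aligned with the last 49 of Rnu1a1, and the U1 Sm letters AATTTGTGG, which start at position 125 of Rnu1a1 and are found in 17.6% of the rows, are not in it. Gm22220 stands 457396 bases from Gm22513, the nearest U1-like row on chromosome 12.

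Gm23472 (ENSMUSG00000094050.1) is a full-length U2 RNA of 191 bases. It lies on the plus strand of chr1:72236946-72237136, in an intron of the long non-coding gene D230017M19Rik, with 3 other U2 rows within 17872 bases of it (Gm24497, Gm25360 and Gm25939). It is shown with the U2 row that has the most reads, Gm23971 on the minus strand of chr11:101645740-101645930, and with its neighbour Gm24497 on the plus strand of chr1:72244213-72244403, since these differ from it by 1 base each and have very different counts. Capitals mark the positions at which the 3 rows differ.
Gm23472: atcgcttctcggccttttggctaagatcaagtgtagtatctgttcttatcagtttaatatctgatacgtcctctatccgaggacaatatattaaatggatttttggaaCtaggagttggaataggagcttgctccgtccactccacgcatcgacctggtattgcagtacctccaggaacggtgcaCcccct
Gm23971: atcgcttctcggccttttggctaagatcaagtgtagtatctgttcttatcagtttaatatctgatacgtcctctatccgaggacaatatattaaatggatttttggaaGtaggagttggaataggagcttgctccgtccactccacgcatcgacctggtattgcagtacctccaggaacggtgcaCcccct
Gm24497: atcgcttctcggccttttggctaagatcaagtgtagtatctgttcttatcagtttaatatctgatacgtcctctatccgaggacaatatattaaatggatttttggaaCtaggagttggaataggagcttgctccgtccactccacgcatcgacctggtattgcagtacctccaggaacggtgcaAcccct

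The branch-site pairing letters GTAGTA start at position 33 of Gm23472 and the U2 Sm letters ATTTTTG at position 99. On either strand, 10.7% and 12.98% of the 131 rows hold them. Gm23444 on chromosome 11 has the identical sequence, with 114598 reads against 114620 for Gm23472 and a summed difference over all libraries of 46 reads, and reads of the pair cannot be told apart. Counted from the 5′ end of Gm23472, with its base first, Gm23971 differs by C109G and had 133727 reads. Gm24497 differs by C186A, near the 3′ end, and had 3040. Gm25939, which differs by T69C and C78T, had 112716 reads, and Gm25360, which differs by C78T, A95G and C154T, had 2648. The rule for reads that match several copies is not stated in the sources used here. Gm23472 is therefore read here as a measure of U2 RNA with its sequence or one close to it, not of the gene on chromosome 1 alone.

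Depth and composition bear on the values that follow. Reads per library, over the 796 rows left after rows with matching counts were merged and rows under 50 reads removed, ran from 827 to 1467860 with a median of 59874. Cauda libraries held 12166 to 628351 and sperm libraries 8533 to 134965. Levels are reads of a row per 1000000 of these reads (RPM), with SD over libraries. The tissue labels could be checked on few rows: piRNA precursors made up 4.50% ± 3.76 (SD, n = 19) of testis reads and at most 0.582% ± 0.312 (SD, n = 19, sperm) in the other tissues, and none of 13 cell type microRNAs sought was a row of the table. How much of each library came from epithelium, sperm or other cells was therefore not measured, and in such bulk libraries fewer cells of a type and less RNA per cell cannot be told apart.

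Gm22220 was read mostly in the cauda libraries. It had 1955 of its 2135 reads there, 91.6%, and 86 reads, 4.03%, in sperm. Its mean was 1255 RPM ± 723 (SD, n = 18) in cauda and 109 RPM ± 98.6 (SD, n = 19) in sperm, 11.5 times lower. Caput followed with 31.4 RPM ± 37.6 (SD, n = 19), testis with 20.4 RPM ± 22.7 (SD, n = 19), liver with 13.7 RPM ± 20.3 (SD, n = 17) and heart with 2.48 RPM ± 3.68 (SD, n = 19). The cauda mean stood above the sperm mean by more than the sum of their SDs, which no later neighbours in this order did. All 18 cauda libraries had reads of it. It had none in 4 sperm, 8 caput, 5 testis, 7 liver and 12 heart libraries, and a count of 0 allows up to 3 reads, or 93.6 to 244 RPM in the 4 sperm libraries and 2.04 to 265 RPM in the 12 heart libraries. These limits and the counts behind them cover counting error only.

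Gm23472 was high in cauda too, but the name of a cauda and sperm RNA goes against its levels. Its mean was 22352 RPM ± 9092 (SD, n = 18) in cauda, 16865 RPM ± 7073 (SD, n = 19) in testis, and only then 8578 RPM ± 5887 (SD, n = 19) in sperm. Liver had 6391 RPM ± 5157 (SD, n = 17), caput 5548 RPM ± 1693 (SD, n = 19) and heart 3331 RPM ± 3740 (SD, n = 19). No neighbours in this order stood apart by more than the sum of their SDs, though testis and sperm differed by more than either SD alone, and the ranges of all neighbours overlapped. Every library of every tissue had reads of it, and cauda held 30.97% and sperm 5.69% of them. Per kilobase of RNA, the cauda level was 117024 RPM for Gm23472, 73592 RPM for Rnu1a1 and 8420 RPM for Gm22220. In sperm the same levels per kilobase were 44912, 26848 and 734 RPM.

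**Figure D1:**
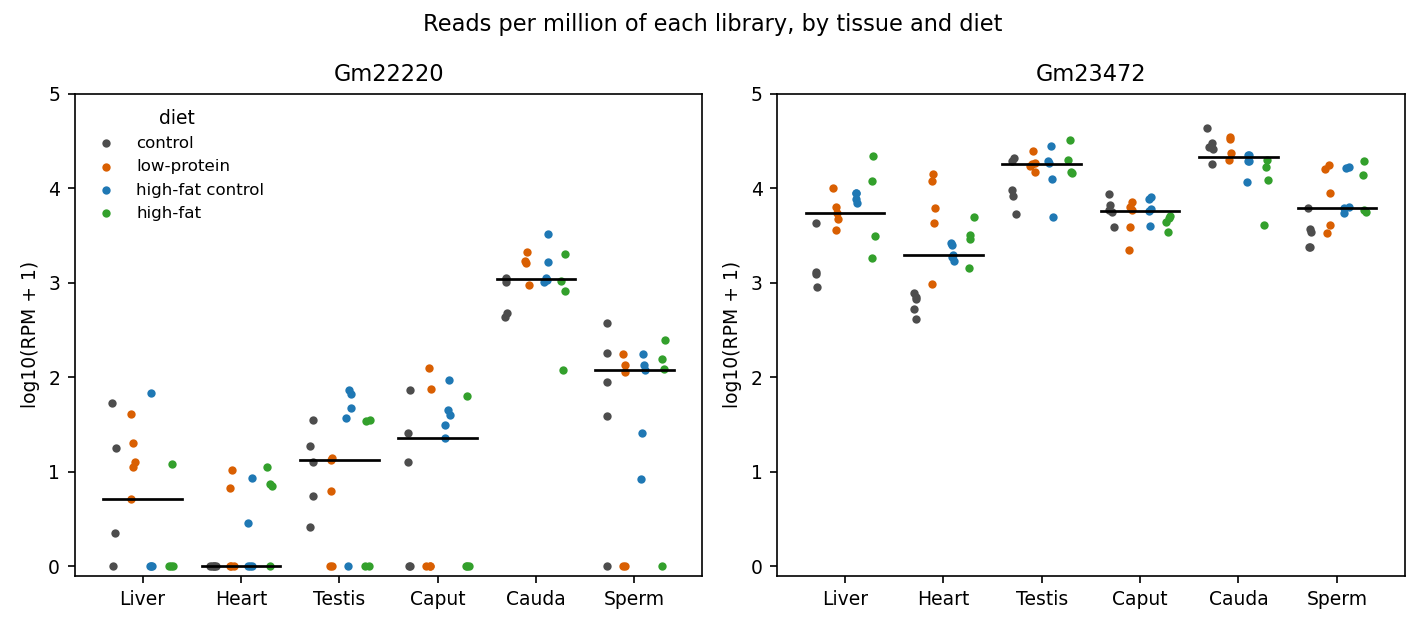
RPM of Gm22220 (left) and Gm23472 (right) in each library on a log scale, log10(RPM + 1), by tissue and coloured by diet; black lines are tissue medians. Gm22220 stands at a mean of 1255 RPM in cauda against 109 RPM in sperm, with libraries at 0 in every tissue but cauda, while Gm23472 is found in every library and testis lies between cauda and sperm.

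On the scale of the fit, which adjusts for diet and scales libraries by TMM, Gm22220 was higher in cauda than in the mean of the other 5 tissues by a log2 fold change of 5.76 ± 0.28 (SE), the second highest of 294 features, and Gm23472 by 1.70 ± 0.25. For Gm23472 that value was 3.35 on the control diet alone and 0.12 on the high-fat diet alone. Rows alike in sequence stood near both: the U1 rows Gm23238, Gm24924 and Rnu1a1 at 5.05, 4.85 and 4.43, and the U2 row Gm23971 at 1.62. Of the 294 features, 44.6% passed the threshold in that contrast in either direction. Sperm lay below cauda by a log2 fold change of -3.35 ± 0.44 for Gm22220, the second lowest of 294, and of -1.67 ± 0.35 for Gm23472, where 42.9% of features passed. The median of all features in that contrast moved from 0.08 with TMM to 0.94 with RLE scaling, and Gm23472 then stood at -0.81. On the high-fat diet alone Gm23472 stood at 0.52. Against the mean of the other 5 tissues, Gm23472 in sperm was at -0.30 ± 0.26 with TMM and at 0.53 with RLE scaling, so its sign there depends on the scaling; 64.3% of features passed in that contrast. From caput to cauda, the segment through which sperm pass, the fitted difference was 5.56 ± 0.54 for Gm22220 and 2.33 ± 0.35 for Gm23472, against a median of 0.80 over all features, 64.6% of which passed. The U1 rows Gm23238, Gm24924 and Rnu1a1 were at 5.50, 5.51 and 5.31 there. Cauda minus testis was 6.75 ± 0.51 for Gm22220 and 1.33 ± 0.34 for Gm23472, with 67.7% passing. Sperm minus testis was 3.40 ± 0.50 and -0.33 ± 0.33 in the same order, with 75.2% passing.

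Most other snRNAs were higher in cauda as well, and as many were higher in sperm, but they were divided between cauda and sperm. Among the 24 other snRNA rows fitted across tissues, 20 passed as higher in cauda than in the other tissues and 0 as lower, beside 82 and 49 of all 294 features. In sperm, too, 20 passed as higher than in the other tissues and 0 as lower, beside 112 and 77 of all features. A row high in 1 tissue alone could pass the filter on low counts, so these counts describe the list and are not a test. The comparison of sperm with cauda split the 24 rows, with 12 higher in sperm and 9 lower, beside 67 and 59 of all features. Of 6 other U2 rows, 5 were lower in sperm and 0 higher, and of 7 other U1 rows, 4 were lower and 3 higher. Rows of a family share sequence and may list the same reads, so these are not counts of separate RNAs. Rnu1a1 had 12069 RPM ± 7010 (SD, n = 18) in cauda and 4403 RPM ± 2236 (SD, n = 19) in sperm. Rnu11, the U11 RNA of the minor spliceosome, was nearly level at 320 RPM ± 296 (SD, n = 18) and 400 RPM ± 218 (SD, n = 19). Rnu12, which is U12 of the same machinery, had 64.9 RPM ± 73.7 (SD, n = 18) in cauda and 153 RPM ± 144 (SD, n = 19) in sperm. Gm25709, the U6 row with the most reads, had 115 RPM ± 146 (SD, n = 18) and 264 RPM ± 196 (SD, n = 19), and Gm25313, the same for U5, had 85.5 RPM ± 67.1 (SD, n = 18) and 127 RPM ± 132 (SD, n = 19). Rnu7, which processes histone messengers, had 2 reads in cauda and 0 in sperm.

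Each row was then set against its closest abundant relative within the same library, over libraries with at least 20 reads of the relative, which removes the scaling between libraries. Reads of Gm22220 came to 10.6% ± 3.33 (SD, n = 18) of those of Rnu1a1 in cauda, with a range of 6.45% to 17.6%. In sperm they came to 2.52% ± 2.71 (SD, n = 17), where a single library, at 11.1%, lay within the cauda range and all others lay under it. In testis they came to 2.39% ± 2.76 (SD, n = 18). Heart and liver had few reads of either row and wide spreads, 5.98% ± 5.62 (SD, n = 8) and 6.16% ± 5.46 (SD, n = 9), and in caput only 3 libraries could be used. The mean share of Gm22220 relative to Rnu1a1 was thus lower in sperm than in cauda. This describes levels for which the row was picked, and it was not tested. Sperm libraries held 0 to 20 reads of Gm22220. Reads that fall in the 72 shared bases can come from either RNA, and their part in the count of Gm22220 was not tested.

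For Gm23472 the means of the same measure differed little between most tissues. Its reads were 89.6% ± 7.16 (SD, n = 18) of those of Gm23971 in cauda and 87.3% ± 6.59 (SD, n = 19) in sperm. The means of the other 4 tissues ran from 79.5% ± 4.56 (SD, n = 19) in heart to 89.5% ± 5.70 (SD, n = 17) in liver. Within cauda the share of Gm23472 ran from 93.2% to 98.3% on the control diet and from 89.0% to 93.2% on the low-protein diet. It ran from 87.2% to 96.3% on the high-fat control diet and from 72.3% to 86.9% on the high-fat diet. Rarer U2 rows varied more, and in cauda they varied with diet as well. Gm26316, which differs from Gm23472 by C109G and C170T, came to 10.1% ± 9.79 (SD, n = 18) of Gm23971 in cauda and 15.2% ± 8.41 (SD, n = 19) in sperm, against 0.549% ± 0.381 (SD, n = 19) in heart. Within cauda it ran from 1.13% to 4.59% on the control diet and from 5.38% to 10.8% on the low-protein diet. It ran from 2.48% to 12.3% on the high-fat control diet and from 13.4% to 33.4% on the high-fat diet. In sperm the diets overlapped for Gm26316, with 12.9% to 28.2% on the control and 4.85% to 22.2% on the low-protein diet. The high-fat control diet had 5.87% to 20.9% there and the high-fat diet 4.26% to 36.9%. Gm24497, which differs at position 186, came to 4.62% ± 5.37 (SD, n = 18) in cauda, 3.97% ± 3.32 (SD, n = 19) in sperm and 0.356% ± 0.362 (SD, n = 19) in heart. On the control diet Gm24497 ran from 0.134% to 2.73% in cauda and from 2.35% to 5.93% in sperm. On the high-fat control diet it ran from 0.826% to 6.30% in cauda and from 1.49% to 5.44% in sperm. On the high-fat diet it ran from 6.50% to 22.2% in cauda and from 1.46% to 15.9% in sperm. The order of cauda and sperm was not the same on the control and high-fat diets. These values by diet were not tested.

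**Figure D2:**
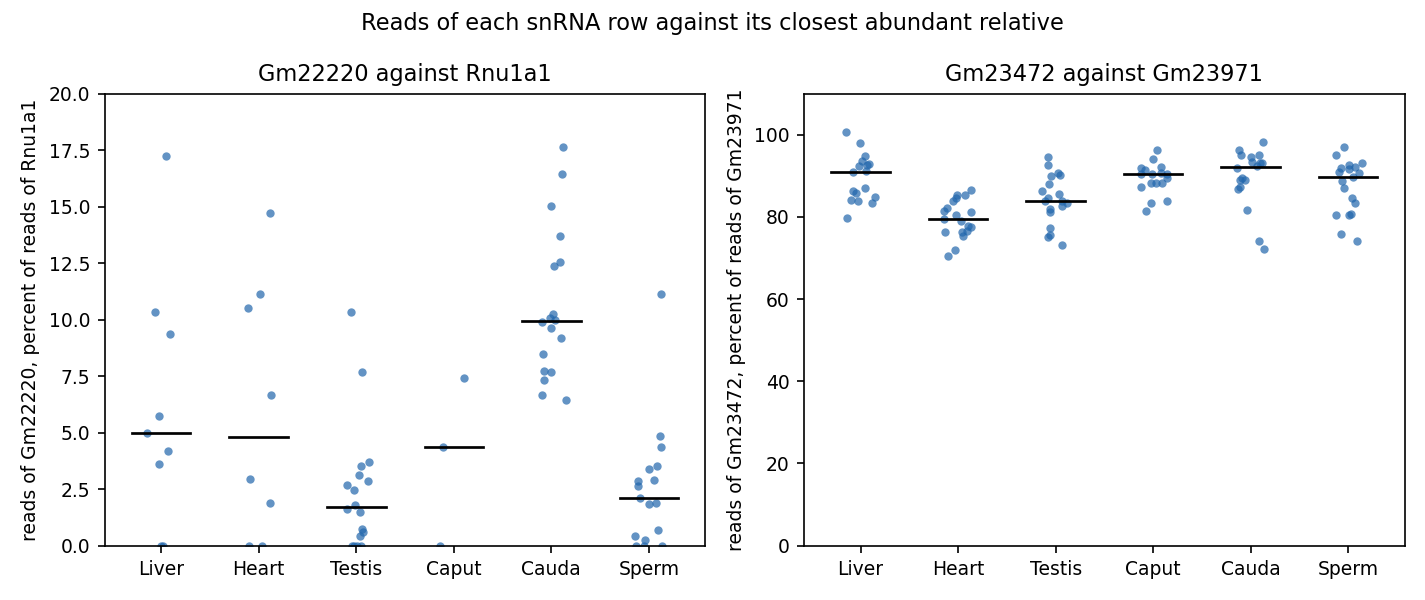
Reads of Gm22220 as a percent of reads of Rnu1a1 (left) and of Gm23472 as a percent of Gm23971 (right), 1 point per library with at least 20 reads of the relative, by tissue; black lines are medians. The cauda libraries of Gm22220 lie from 6.45% to 17.6% and all but 1 of the sperm libraries lie under them, while Gm23472 keeps between 70.4% and 101% of Gm23971 in all tissues.

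The rows whose means over the 24 groups of tissue and diet were most like those of Gm22220, by Spearman's rho on log2(mean RPM + 10) among 374 features with at least 500 reads, were Rny1 (0.89), a Y RNA bound by the Ro protein, then the U1 rows Gm24924 (0.89), Gm23238 (0.88) and Rnu1a1 (0.88), with the U2 row Gm24497 (0.89) between them. For Gm23472 they were Gm23971 (0.99), the piRNA precursor pi-Arhgap20.2 (0.86), the U2 row Gm25360 (0.85), the small nucleolar RNA Gm22357 (0.82) and Rn7s1 (0.80), which belongs to the signal recognition particle. Gm22220 and Gm23472 themselves correlated at 0.53, which put Gm23472 at rank 83 for Gm22220. These groups share libraries and depths between rows, so the values are descriptions. The leading names depended on the measure, since with Pearson's r over the same means 3 of 5 were shared for Gm22220 and 4 of 5 for Gm23472.

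Cauda and sperm were then compared on each diet, beginning with Gm22220. On the control diet its cauda libraries had 435, 471, 1014, 1100 and 1112 RPM, and its sperm libraries 0, 38.1, 88.3, 181 and 370 RPM. On the low-protein diet cauda had 932, 1607, 1691 and 2122 RPM, and sperm 0, 0, 112, 132 and 175 RPM. The groups did not overlap on either diet, and the counts in sperm were small, between 0 and 14 reads in a library on the control diet and between 0 and 4 on the low-protein diet. The share of all features whose groups did not overlap was not counted.

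On the high-fat control diet Gm22220 had 1020, 1069, 1128, 1645 and 3242 RPM in cauda and 7.41, 24.4, 117, 134 and 174 RPM in sperm. On the high-fat diet it had 119, 809, 1049 and 2017 RPM in cauda and 0, 122, 154 and 247 RPM in sperm. Here the groups overlapped through cauda replicate 4 alone, the deepest cauda library with 628351 reads, which was the lowest of its group for both RNAs. Fitted sperm minus cauda differences of Gm22220 were -2.65 ± 0.70 (SE) on the control diet, -4.70 ± 0.82 on the low-protein diet, -4.15 ± 0.74 on the high-fat control diet and -2.32 ± 0.74 on the high-fat diet. Counted from the lowest of 240 features, these differences ranked 11, 1, 2 and 38 in the same order. Without cauda replicate 4 the high-fat value was -2.53.

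Gm23472 behaved otherwise from diet to diet. On the control diet cauda libraries had 18105, 25732, 27099, 29924 and 42997 RPM and sperm libraries 2351, 2399, 3400, 3652 and 6175 RPM, so that cauda was 8.00 times higher in the means and the groups lay far apart. On the low-protein diet cauda had 19901, 23644, 32704 and 34320 RPM and sperm 3328, 4062, 8773, 16035 and 17562 RPM. The groups still did not overlap, though 2 sperm libraries came close to the lowest cauda value. Here too the share of all features without overlap was not counted.

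On the high-fat control diet Gm23472 had 11623, 19152, 19204, 22535 and 22613 RPM in cauda and 5453, 6093, 6328, 16333 and 16518 RPM in sperm. On the high-fat diet it had 4093, 12161, 16592 and 19929 RPM in cauda and 5553, 5803, 13714 and 19451 RPM in sperm. The groups overlapped on both diets. On the high-fat diet the sperm mean was 84.4% of the cauda mean, against 53.3% on its own control diet and 12.5% on the control diet. Fitted sperm minus cauda differences of Gm23472 were -3.17 ± 0.60 (SE) on the control diet, -2.04 ± 0.59 with low protein and -0.76 ± 0.55 on the high-fat control diet. On the high-fat diet the difference was 0.13 ± 0.62 with TMM and -0.26 with total-count scaling, so it has no settled sign, and it was 0.00 without cauda replicate 4. Counted from the lowest of 240 features, the TMM values ranked 4, 27, 71 and 133 on these 4 diets in the order given. Mitochondrial tRNAs, whose share of reads is a sign of composition, made up 3.55% to 7.14% of reads in cauda on the control diet and 9.16% to 26.3% on the high-fat diet. In sperm they made up 7.17% to 32.02% and 3.88% to 5.75%. The part of these shares in the comparison was not tested.

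**Figure D3:**
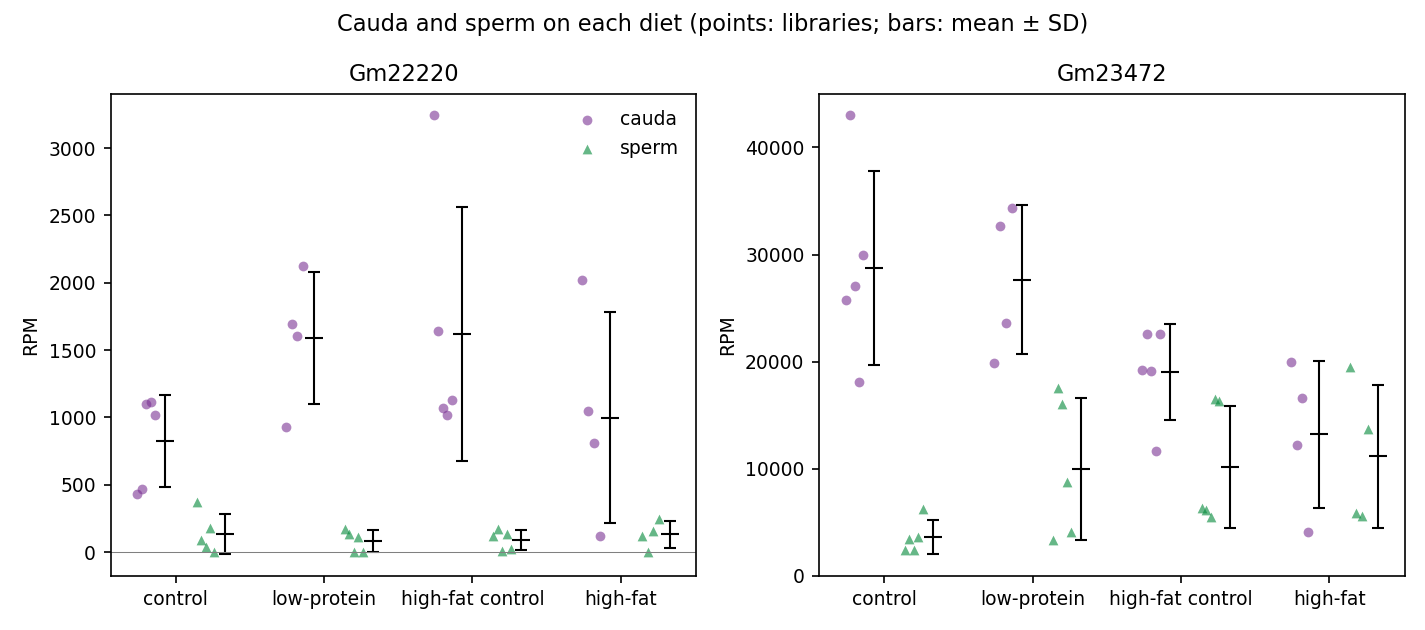
RPM of Gm22220 (left) and Gm23472 (right) in cauda (circles) and sperm (triangles) on each diet; each point is a library and the black bars give mean ± SD. Gm22220 has a far lower mean in sperm on every diet. For Gm23472 the cauda and sperm means are 28772 and 3595 RPM on the control diet and 13194 and 11130 RPM on the high-fat diet. On the high-fat control diet the sperm mean of Gm23472 is 53.3% of the cauda mean, against 84.4% on the high-fat diet.

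**Figure D4:**
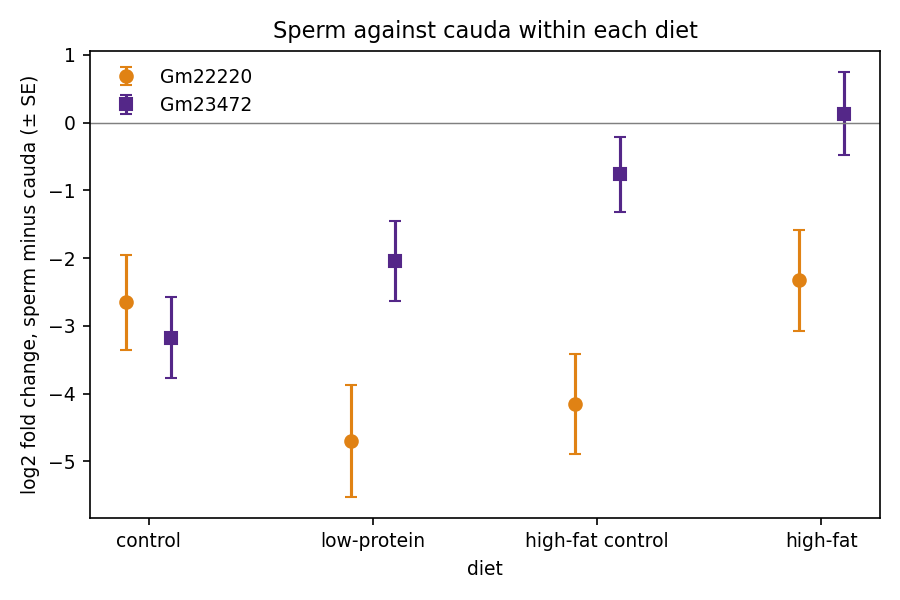
Fitted log2 fold change of sperm minus cauda, with its SE, for Gm22220 (circles) and Gm23472 (squares) on each of the 4 diets. For Gm23472 the values run from -3.17 on the control diet to 0.13 on the high-fat diet, and for Gm22220 the values of the control and high-fat diets (-2.65 and -2.32) lie above those of the other diets.

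Whether the step from cauda to sperm depended on diet was tested with edgeR's quasi-likelihood test of the interaction, over all 240 features with p-values adjusted by the Benjamini-Hochberg method. Neither RNA passed for the diet pairs of the study. For Gm22220 the test cannot decide, since that row passed the filter on low counts within cauda but not within sperm. Sperm reads of Gm22220 summed to between 8 and 34 in a group, so no conclusion is drawn from its values here. For low-protein minus control the difference was 1.13 ± 0.81 (SE, adjusted p = 0.806) for Gm23472 and -2.05 ± 1.08 (adjusted p = 0.612) for Gm22220, with 0 of 240 features called (0%), 18 at an unadjusted p under 0.05. For high-fat minus high-fat control it was 0.90 ± 0.83 (adjusted p = 0.845) for Gm23472 and 1.82 ± 1.01 (adjusted p = 0.484) for Gm22220, with 0.417% of features called. The gap between the control diets was tested only after it was seen. There the difference was 2.41 ± 0.79 (adjusted p = 0.0887) for Gm23472 and -1.496 ± 0.98 (adjusted p = 0.499) for Gm22220, with 0.833% called. The value of Gm23472 passed under RLE scaling (adjusted p = 0.0441), with DESeq2 (adjusted p = 0.00512) and over all rows of the table (adjusted p = 0.0452), but not with total-count scaling (adjusted p = 0.149). It also passed without sperm replicate 5 of the control diet (adjusted p = 0.0481).

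Within cauda, no diet change of either RNA passed the test. Gm22220 was at 0.91 ± 0.49 (SE, adjusted p = 0.287) for low-protein minus control and at -1.06 ± 0.50 (adjusted p = 0.599) for high-fat minus high-fat control. In a fit of the control and low-protein groups alone the first value was 0.94 with an adjusted p of 0.0382. Gm23472 was at -0.33 ± 0.43 (adjusted p = 0.609) and -0.78 ± 0.43 (adjusted p = 0.623) in the same contrasts. Between the control diets Gm23472 was lower on the high-fat control diet by -1.26 ± 0.41 (adjusted p = 0.166), a value that passed over all rows of the table (adjusted p = 0.0440) and without control replicate 3 or 4 (adjusted p = 0.0343 at the lowest). Gm22220 was at 0.60 ± 0.47 (adjusted p = 0.619) there. In these 3 cauda contrasts edgeR called 0 of 218 features (0%), with 45, 18 and 21 at an unadjusted p under 0.05, and DESeq2 called 17, 0 and 3. The last contrast shares its control libraries with the first.

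In sperm Gm23472 was higher on average on all 3 other diets than on the control diet, yet no test passed. It was at 1.24 ± 0.63 (SE, adjusted p = 0.987) for low-protein minus control, at 0.43 ± 0.65 (adjusted p = 0.927) for high-fat minus high-fat control and at 1.54 ± 0.63 (adjusted p = 0.299) between the control diets. Gm22220 did not pass the filter on low counts in sperm, with 23 on the control, 8 on the low-protein, 21 on the high-fat control and 34 on the high-fat diet. Without the filter it was at -1.18 ± 0.86 (adjusted p = 0.857), 0.90 ± 0.78 (adjusted p = 0.943) and -0.87 ± 0.77 (adjusted p = 0.629) in the same 3 contrasts. The 3 sperm contrasts had 0 of 180 features called (0%) by edgeR and by DESeq2, with 0, 6 and 21 at an unadjusted p under 0.05 in edgeR. A p that misses the threshold does not show that the groups are alike, and the SE of 0.63 to 0.65 on the log2 scale is wide for Gm23472.

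The balance of the RNAs within a library was compared as the log2 ratio of Gm22220 to Gm23472 reads, with 0.5 reads added to each. It averaged -4.27 ± 0.91 (SD, n = 18) in cauda and -6.32 ± 1.85 (SD, n = 19) in sperm. In the other tissues it averaged from -9.69 ± 1.77 (SD, n = 19) in testis to -6.72 ± 1.66 (SD, n = 19) in caput. The ratio in sperm rests on 0 to 20 reads of Gm22220 in a library, with 4 of 19 at 0, so the added reads weigh on it. For low-protein minus control it differed by 1.03 in cauda (exact permutation test, two-sided, p = 0.0873, adjusted over the 4 tests 0.349) and by -1.51 in sperm (exact permutation p = 0.270, adjusted 0.540). For high-fat minus high-fat control it differed by -0.41 in cauda (exact permutation p = 0.429, adjusted 0.571) and by 0.49 in sperm (exact permutation p = 0.635, adjusted 0.635). None of these 4 tests passed, and the balance was not compared between the control diets.

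Outside the epididymis, Gm23472 rose on the low-protein diet in heart and liver. In heart the control libraries had 410, 526, 668, 706 and 775 RPM and the low-protein libraries 957, 4230, 6160, 11866 and 13969 RPM, and the groups did not overlap. The log2 fold change was 3.25 ± 0.55 (SE, edgeR adjusted p = 1.41e-08), in a contrast in which 75.2% of 242 features were called. A call there is the rule and not the exception, and heart libraries on the diets differed throughout: mitochondrial tRNAs made up 74.7% to 77.98% of reads in the control group and 36.7% to 87.3% in the low-protein group, and depth ran from 735201 to 1467860 reads and from 29208 to 470040. Their part in the result was not tested.

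In liver the control libraries of Gm23472 had 905, 1217, 1308 and 4231 RPM and the low-protein libraries 3556, 4677, 5502, 6234 and 10110 RPM, overlapping through 1 control library. The log2 fold change was 1.98 ± 0.63 (SE, edgeR adjusted p = 0.0163), with 35.6% of 205 features called. Mitochondrial tRNAs made up 21.7% to 28.6% of reads in the control and 52.5% to 78.02% in the low-protein livers, and their part was not tested. The call was lost with total-count scaling (adjusted p = 0.0609), without the filter on low counts (adjusted p = 0.0891), in a fit of the 2 groups alone (adjusted p = 0.0843) and without control replicate 2 (adjusted p = 0.0591).

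In testis and caput Gm23472 did not pass. For low-protein minus control it was at -0.07 ± 0.43 (SE, adjusted p = 0.996) in testis, with 0 of 444 features called (0%), 41 at an unadjusted p under 0.05 and 0 by DESeq2, and at -0.40 ± 0.43 (adjusted p = 0.472) in caput, where 41.4% of 145 features were called. The high-fat diet gave no call of Gm23472 against its control in liver (1.04 ± 0.64, adjusted p = 0.261), heart (0.43 ± 0.53, adjusted p = 0.925), testis (0.33 ± 0.45, adjusted p = 0.852) or caput (-0.54 ± 0.45, adjusted p = 0.449), where 2.93%, 1.24%, 0% and 0.69% of features were called. In testis 20 features had an unadjusted p under 0.05 in that contrast and DESeq2 called 2. Gm22220 did not pass the filter on low counts in these tissues, its reads there summing to between 0 and 14 in a group. In a fit without that filter, 1 of its 8 contrasts in them was called, low-protein minus control in heart (adjusted p = 0.0376), where 48.3% of 603 features were called. It rests on 2 reads against 0, which allow no fold change.

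Whether the low-protein effect differed among the 6 tissues was tested after these effects were seen. The test passed for Gm23472 (edgeR adjusted p = 0.00117), in a contrast in which 35.9% of 410 features passed. Gm22220 passed the filter on low counts within cauda alone and is not counted here. For the high-fat diet Gm23472 did not pass (adjusted p = 0.899), with 3.17% of features called.

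**Figure D5:**
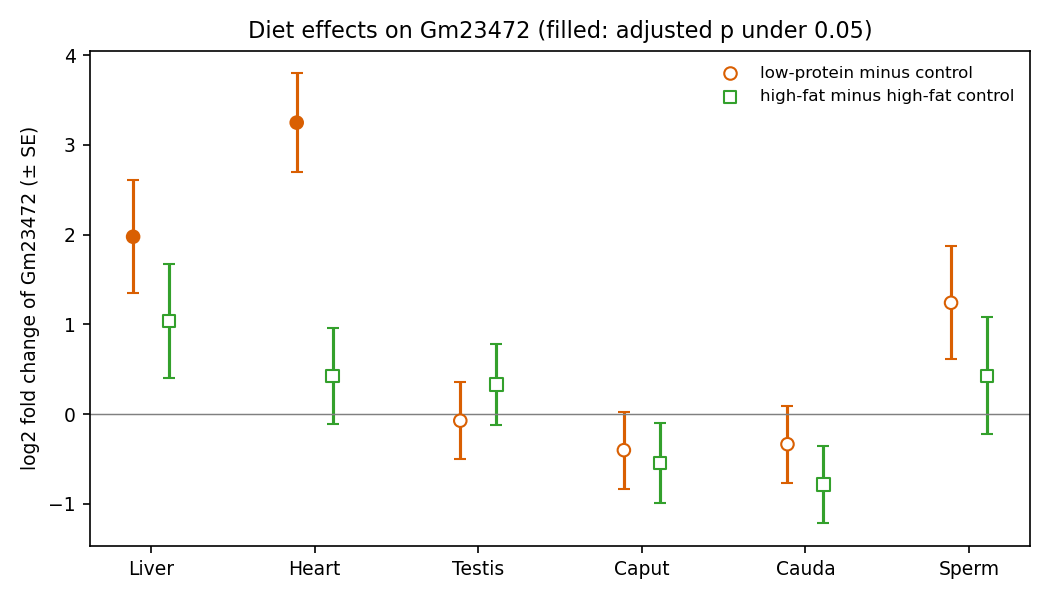
Log2 fold change of Gm23472 with its SE in each tissue for low-protein minus control (circles) and high-fat minus high-fat control (squares), filled where the adjusted p is under 0.05. The filled points are heart (3.25) and liver (1.98) on the low-protein diet; in cauda both points lie under 0 and in sperm both lie above it.

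The other snRNAs gave the setting for these calls. On the low-protein diet 11 of 13 snRNA rows tested in heart rose and 2 fell, where 81 of all 242 features rose and 101 fell. A fit of the 2 groups alone called 4 of the 13. The list had a median log2 fold change of 3.41 against -0.29 for all features. Those that rose were all 7 U1 rows, Rnu1a1 among them at 4.17 ± 0.50 (adjusted p = 1.01e-15), and all 4 U2 rows. Those that fell were the U6 rows Gm25709 (-6.49 ± 1.35, adjusted p = 4.35e-06) and Gm25869 (-6.42 ± 1.36, adjusted p = 5.96e-06), named after their values were seen. Rows of a family share sequence and may list the same reads, and Gm23472 and Gm23971 correlated at 0.997 over libraries. The 13 rows are therefore not 13 separate RNAs. In liver 2 of 7 rose, Gm23472 and Gm23971 (2.07 ± 0.62, adjusted p = 0.0124), which differ by 1 base, with a median of 1.52 against 0.13. That share lies under the 35.6% of all features called there, and the count was 0 in a fit of the 2 groups and 1 with total-count scaling or without the filter. In caput 1 of 4 rose, Rnu1a1 at 1.23 ± 0.48 (adjusted p = 0.0318), with a median of 0.37 against -0.44, and that call did not hold with RLE scaling, with DESeq2, or without control replicate 2, 3 or 4 or low-protein replicate 4. In testis edgeR called 0 of 28 rows, in cauda 0 of 19 and in sperm 0 of 31 on that diet, where it called 0% of all features, while DESeq2 called 2 of the 19 cauda rows and the fit of 2 groups 4. For the high-fat diet the main edgeR fits called no snRNA row in any tissue. In cauda edgeR called 30 without the filter on low counts, 6 without high-fat replicate 1, and some over all rows of the table. These counts from alternative fits were not set against the share of all features called there, and no conclusion is drawn from them.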

How the data were processed

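The authors deposited raw read counts, 1 row per small RNA and 1 column per library, not normalized. Tools named in the submitters' processing notes are cutadapt and DESeq2, with build mm10. The aligner, the counting rule and the use of strand are not stated there. Every column name ends in the same tag, whose meaning is not given, so a limit on read length or quality is not known. Of 1268 rows, 796 were kept: 55 5S rRNA rows, 149 rows whose counts match a kept row (summed difference under 5%), 22 second names of mitochondrial tRNAs and 246 rows under 50 reads were left out. Class, coordinates and RNA sequences came from GENCODE release 21 of the mouse annotation, and U families from alignment to named rows. The tests on counts used edgeR 4.0.16 under R 4.3.3 (TMM, filterByExpr, robust quasi-likelihood), 1 fit per tissue with all diets, 1 of cauda and sperm for the interaction, and 1 over all libraries for tissues. Called means an adjusted p under 0.05, and for tissues also a log2 fold change beyond 1 in size. SE is derived from the F statistic. The replicates of 204 pairs all differed by more than sampling noise. The fits were tested on simulated data. Alternatives were DESeq2 1.42.0, RLE and total-count scaling, no filter, all rows, shallow libraries (under 5000 reads, 3 of them) left out, each library left out, 2-group fits and a replicate block. Same-numbered libraries were taken as paired where every correlation of their deviations exceeded 0.1, which held for high-fat and its control in cauda (4 of 4 pairs, 0.13 to 0.46) and caput (4 of 4, 0.11 to 0.29) and in no other contrast checked. There the block changed no call. Named rows are the members, the 5 rows most like each, the most-read row of each snRNA family and rows that share sequence. The members and lists were chosen with earlier results of these data known.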

Additional observations from a re-analysis of the deposited data

Results flagged for a closer look

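Among 32 pairs of a group and an RNA tested for a library far from the others, 2 were found, and chance alone gives about 1 in 20. In cauda on the high-fat control diet, replicate 1 had 3242 RPM of Gm22220 (196 reads), and the next library had 1645 RPM. In liver on the control diet, replicate 1 had 4231 RPM of Gm23472 (326 reads), and the next library had 1308 RPM.

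The effect of the low-protein diet differed among the 6 tissues by edgeR's test of that difference, for Gm23472 with an adjusted p of 0.00117 and for Gm22220 with an adjusted p of 0.0383. The value of Gm22220 bears no weight, since that row passed the filter on low counts within cauda alone and did not pass the test with total-count scaling (adjusted p = 0.0825). It had 2 reads on the low-protein and 0 on the control diet in heart, and 3 on each in caput.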

How the results depend on the processing

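For the diet effects and interactions, 152 of 165 alternatives kept the direction and the side of the threshold, 4 lost a call, 6 gained one and 3 reversed. With 1 library left out, 261 of 273 did so. Gm23472 in liver on the low-protein diet was no longer called at 1.65 with total-count scaling, 1.73 without the filter, 1.99 with the replicate block and 1.47 in the fit of 2 groups. Its testis value on that diet reversed to 0.55 with total-count scaling and 0.00646 with 2 groups, and its caput value was -0.75, called, over all rows and reversed to 0.17 with 2 groups. Gm22220 in cauda was called at 0.94 with 2 groups. Between the control diets, Gm23472 in cauda was called at -1.19 over all rows, and its sperm minus cauda difference at 3.03 with RLE scaling, 3.03 with DESeq2 and 2.80 over all rows. The test of Gm22220 among 6 tissues lost its call with total-count scaling (F = 2.48). The causes were not tested.

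Of the tissue levels, 65 of 84 alternatives moved by less than the spread between libraries. Cauda against the other tissues for Gm23472 was 3.35 on the control and 0.12 on the high-fat diet alone. Sperm minus cauda for Gm22220 was -4.65 on the low-protein and -1.94 on the high-fat diet alone. For Gm23472 it was -0.81 with RLE scaling, -3.68 on the control diet, -0.87 on the high-fat control diet and reversed to 0.52 on the high-fat diet alone. Sperm against the other tissues for Gm23472 was 0.53 with RLE scaling, -1.07 on the control and 0.74 on the high-fat diet.

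The number of snRNA rows called was 2 in liver on the low-protein diet, and 1 with total-count scaling, 1 without the filter, 7 over all rows, 1 with the block and 0 with 2 groups. In heart it was 13, and 45 without the filter, where 48.3% of 603 features were called, 37 over all rows and 4 with 2 groups. In caput it was 1, and 0 with RLE scaling, no filter, DESeq2, the block or 2 groups, 2 with total-count scaling or without shallow libraries, and 7 over all rows. In cauda it was 0, and for low-protein 2 with DESeq2 and 4 with 2 groups, for high-fat 30 without the filter and 9 over all rows, and between the control diets 1 without the filter, with DESeq2 and with the block and 8 over all rows. DESeq2 called 17 of 218 features in the first and 3 in the last of these cauda contrasts. Counts from the remaining alternatives were not set against the share of all features called, and no conclusion is drawn from them.

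Leaving out 1 library gave these ranges for Gm23472. Low-protein minus control ran from 1.93 to 2.39 in liver, lost without control replicate 2, and from 2.82 to 4.03 in heart, always called. It ran from -0.12 to 0.0787 in testis (0.0421 without control replicate 4, 0.0787 and 0.0649 without low-protein replicate 1 or 5), from -0.49 to 0.20 in caput, reversed without control replicate 1, from -0.41 to 0.0348 in cauda, reversed without control replicate 2, and from 0.87 to 1.57 in sperm. High-fat minus its control ran from -0.0161 to 1.23 in liver, reversed without high-fat replicate 4, from -0.0819 to 0.78 in heart, reversed without high-fat replicate 2, from 0.10 to 0.58 in testis, from -0.55 to -0.09 in caput, from -1.004 to -0.52 in cauda, and from -0.16 to 0.71 in sperm, reversed without high-fat replicate 1. Between the control diets it ran from -1.74 to -0.88 in cauda, called without control replicate 3 or 4, and from 1.26 to 1.88 in sperm. The sperm minus cauda difference between the control diets ran from 2.10 to 2.91, called without sperm control replicate 5. The log2 ratio of Gm22220 to Gm23472 in sperm for high-fat ran from -0.01 to 0.96, reversed (-0.00635) without high-fat control replicate 3. The snRNA calls ran from 1 to 5 in liver and from 0 to 2 in caput for low-protein, and in cauda from 0 to 6 for high-fat, 6 without high-fat replicate 1, and from 0 to 3 between the control diets. They were not set against the share of all features called in the same fits.

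Replicate numbers met the criterion for pairing only in the high-fat contrasts of cauda and caput. Of 18 pairs of a cauda and a sperm library with the same diet and number, 4 had deviations correlated above 0.1 (median -0.01). Beside the liver value above, the replicate block changed no call of Gm22220 or Gm23472, and the sperm minus cauda difference between the control diets was 2.44 with the number in the titles (adjusted p = 0.0746) and 2.25 with diet and library number as the block (adjusted p = 0.429). Depth limits Gm22220 in sperm, with 86 reads over all sperm libraries.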
